A study of Mus musculus with 12 samples.

Results

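The SIBLING genes (small integrin-binding ligand, N-linked glycoproteins) encode acidic phosphoproteins of bone and dentine that lie side by side in the genome. They were chosen by symbol, after Ensembl identifiers were matched to mouse gene names, as Dmp1, Ibsp, Spp1, Mepe and Dspp, together with Phex and Fgf23, through which osteocytes act on phosphate. All 7 genes were found among the 49585 genes of the deposited tables. The libraries came from 4 populations of steady-state, wild-type C57BL/6 male mice aged 8 to 10 weeks, with 3 libraries per population and 2000 cells per library. All sorted cells lacked CD45, Ter119 and CD31, and the labels give bone marrow as the tissue of every sample. By the study's methods, however, CD51+CD140a+ MSCs came from marrow of femora and tibiae treated with Accumax, whereas the other 3 populations were released with collagenase from fragments of femora, tibiae and iliac bones whose marrow had been removed. Differences of CD51+CD140a+ MSCs from the others therefore cannot be told apart from those of site and digestion. Itga8+ MSCs were Alcam+Sca-1- cells that carry integrin alpha 8, and Itga8-Alcam+ BLCs (bone-lining cells, labelled as osteoblasts) were their Itga8- counterpart. Sca-1+ MSCs were Alcam-, and CD51+CD140a+ MSCs are the perivascular stromal population. No transgene, deletion or treatment was part of these samples. The labels do not say whether libraries of a population came from separate mice, so tests measure the spread between these samples, which may be technical.

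SIBLING proteins are secreted into the matrix and share an Arg-Gly-Asp sequence through which they bind integrins. Osteopontin (Spp1) is made by many cell types and restrains mineral growth, whereas bone sialoprotein (Ibsp) marks cells that lay down bone mineral. Dmp1 rises as osteoblasts become osteocytes, and Mepe and Sost are late osteocyte genes. Phex is a membrane endopeptidase of osteoblasts and osteocytes, and loss of Phex or Dmp1 raises FGF23, the hormone by which bone makes the kidney waste phosphate. Integrin alpha 8, the sorting marker, is itself a receptor for osteopontin.

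Library totals ran from 17580677 to 31332475 counts. Levels are in CPM, counts scaled to library size by TMM, which allows for a few abundant genes, and 3 counts, taken as the floor of detection, corresponded to 0.0820 to 0.180 CPM. Sorting genes went with the labels in part. Itga8 was at 35.2 to 199 CPM in Itga8+ MSCs, against 0.398 to 4.17 CPM in Itga8-Alcam+ BLCs, and Ly6a, which encodes Sca-1, was at 611 to 659 CPM in Sca-1+ MSCs. Itga8 was also at 53.1 to 82.9 CPM in CD51+CD140a+ MSCs. Alcam was low even in the Alcam+ sorts, at 1.29 to 5.82 CPM, against at most 0.221 CPM in the other 6 libraries. Pdgfra, which encodes CD140a, averaged 874 CPM in Sca-1+ MSCs and 767 CPM in CD51+CD140a+ MSCs, and Itgav, which encodes CD51, averaged 134 and 164 CPM, so neither set these populations apart. Cartilage genes (6, with Col2a1) summed to 6845 to 69302 CPM in Itga8-Alcam+ BLCs and 8737 to 111692 CPM in Itga8+ MSCs, against 1319 to 1571 CPM in Sca-1+ MSCs and 498 to 1247 CPM in CD51+CD140a+ MSCs. Myeloid genes (9, with S100a8 and Lyz2) summed to 7342 CPM in Itga8+ replicate 2, the highest of all libraries, and to 75.3 to 2288 CPM in the other 11. Erythroid genes (4) were also highest in that library, at 1096 CPM against 87.3 to 292 CPM elsewhere, as were tendon genes (4), at 6739 CPM against 23.4 to 2338 CPM. Endothelial genes (4), lymphoid genes (3) and skeletal muscle genes (3) summed to at most 22.2, 24.1 and 36.2 CPM, and osteoclast genes (8) to 149 to 845 CPM.

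The 5 SIBLING genes span 270.3 kb of chromosome 5 on the plus strand of GRCm38, in the order Dspp, Dmp1, Ibsp, Mepe and Spp1. Dspp lies at 104170712 to 104180127, Dmp1 at 104202613 to 104214102, Ibsp at 104299171 to 104311469, Mepe at 104325329 to 104338611 and Spp1 at 104435118 to 104441050. Phex is on the X chromosome and Fgf23 on chromosome 6, both apart from the cluster. Of the exon bases of Spp1, 18.8% lie under Gm42793, a gene model on the same strand that had 51 to 59 counts in the CD51+CD140a+ libraries and 0 to 5 in the others, and whether shared reads were dropped is not given in the sources used here. The exons of the other 6 genes overlapped no other gene.

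The sequences just upstream of the SIBLING genes are shown because these neighbours differed by orders of magnitude in the same libraries. They are RefSeq promoters (GRCm38.p6), cut to the bases that lie before the start in both RefSeq and GENCODE, and capitals mark TGTGGT or its reverse complement ACCACA, the core letters of the RUNX motif.

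Dmp1: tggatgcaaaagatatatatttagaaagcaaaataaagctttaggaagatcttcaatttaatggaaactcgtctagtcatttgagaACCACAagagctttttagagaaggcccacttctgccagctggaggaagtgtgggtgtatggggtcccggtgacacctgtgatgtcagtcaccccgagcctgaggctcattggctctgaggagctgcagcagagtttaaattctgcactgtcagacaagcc

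Ibsp: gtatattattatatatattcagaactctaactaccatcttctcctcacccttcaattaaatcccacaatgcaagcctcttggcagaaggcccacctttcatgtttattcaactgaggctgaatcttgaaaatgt

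Mepe: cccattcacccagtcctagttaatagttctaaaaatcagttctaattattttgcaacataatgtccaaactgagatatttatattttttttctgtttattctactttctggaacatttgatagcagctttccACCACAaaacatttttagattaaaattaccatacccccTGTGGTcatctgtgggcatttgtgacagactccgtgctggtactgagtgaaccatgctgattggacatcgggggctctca

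Spp1: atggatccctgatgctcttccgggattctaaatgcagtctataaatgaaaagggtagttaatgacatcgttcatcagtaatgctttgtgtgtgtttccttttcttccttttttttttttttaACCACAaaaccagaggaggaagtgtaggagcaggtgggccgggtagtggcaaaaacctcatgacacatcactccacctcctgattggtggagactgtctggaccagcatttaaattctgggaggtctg

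The windows are chr5:104202367-104202612 for Dmp1, chr5:104299037-104299170 for Ibsp, chr5:104325079-104325328 for Mepe and chr5:104434861-104435110 for Spp1. The RUNX letters began at -164 from the RefSeq start in Dmp1, at -128 in Spp1, and at -118 and -80 in Mepe. Of 32851 windows of 250 bases in the table, 14% held them on either strand. They were not in the Ibsp stretch, in the window of the other RefSeq start of Dmp1, or in those of Phex and Fgf23. The Ibsp stretch held only 134 bases, and those between its GENCODE and RefSeq starts were not searched. The Dmp1 and Spp1 stretches share the 11 letters GGAGGAAGTGT, which 45 windows of the table held on either strand, and the Dmp1 and Ibsp stretches share AGAAGGCCCAC, which 6 windows held. The promoter of Dspp is not shown. A match of letters is a description of the sequence only, and binding was not measured here.

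Spp1 was abundant in every library. Its level was 1047, 2235 and 1196 CPM in the 3 libraries of Itga8+ MSCs, 2767, 2242 and 3653 CPM in Sca-1+ MSCs, 2154, 3502 and 2653 CPM in CD51+CD140a+ MSCs and 2775, 1962 and 7928 CPM in Itga8-Alcam+ BLCs. Per length, Spp1 ranked from 7 to 40 among all genes of a library by TPM (counts divided by exon length and scaled to the same total in every library), so it was near the top in all 4 populations. The mean was 4222 ± 3236 CPM (SD, n = 3) for Itga8-Alcam+ BLCs, 2887 ± 713 for Sca-1+ MSCs, 2769.8 ± 682 for CD51+CD140a+ MSCs and 1493 ± 647 for Itga8+ MSCs. Neighbours in this order overlapped, and of all pairs Itga8+ and Sca-1+ MSCs alone did not. The mean of Itga8-Alcam+ BLCs was carried by replicate 3.

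A gene was called in a comparison when its FDR (Benjamini-Hochberg over the 18648 genes tested, edgeR's quasi-likelihood test) was under 0.1 and its fold change above 2. Spp1 passed this in no comparison, with FDRs of 0.182 to 0.975, and its fitted log2 fold changes ran from -0.95 for Itga8+ over Sca-1+ MSCs to 1.5 (SE 0.496) for Itga8-Alcam+ BLCs over Itga8+ MSCs. The latter had an unadjusted p of 0.0104 in edgeR and an FDR of 0.184, and a 95% interval of 0.53 to 2.47. In DESeq2 the same difference had an FDR of 0.071 and a log2 fold change of 1.48, and was called. Without Itga8+ replicate 2, the library with the highest Spp1 of its population and the highest myeloid sum, it was also called, at 1.89 and an FDR of 0.0902. Without Itga8-Alcam+ replicate 2 the value was 1.84 and the FDR 0.0815, but without Itga8-Alcam+ replicate 3 it fell to 0.68 with an FDR of 0.587. The other alternatives gave 1.24 to 1.72 and did not call it. Spp1 was also called lower in Itga8+ MSCs than in the CD51+CD140a+ population once Itga8+ replicate 2 was left out (-1.28, FDR 0.0918). Without Itga8-Alcam+ replicate 3, Spp1 was also at -0.29 over Sca-1+ MSCs and at -0.23 over CD51+CD140a+ MSCs. Spp1 is also made by macrophages and osteoclasts. Of the 9 myeloid genes, 6 to 9 had a mean of at least 1 CPM in each population, with Lyz2 at 31.5 to 2969 CPM, Cd68 at 1.66 to 39.8 CPM and Adgre1 at 0 to 2.09 CPM across the 12 libraries. Of the 8 osteoclast genes, 3 or 4 did. Ctsk was at 126 to 802 CPM, highest in Itga8-Alcam+ replicate 3, and Acp5 at 12.4 to 43.0 CPM, while Calcr had no count in any library. The osteoclast sum was 308 to 845 CPM in Itga8-Alcam+ BLCs, 203 to 644 CPM in Itga8+ MSCs, 149 to 163 CPM in CD51+CD140a+ MSCs and 300.2 to 336 CPM in Sca-1+ MSCs. The part of these cells in the Spp1 level was not tested.

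Ibsp rose in Itga8-Alcam+ BLCs over Itga8+ and Sca-1+ MSCs but was highest in CD51+CD140a+ MSCs. It was at 316, 223 and 161 CPM in Itga8+ MSCs, at 380.5, 438 and 602 CPM in Sca-1+ MSCs, at 3076, 2628 and 4681 CPM in Itga8-Alcam+ BLCs, and at 6819, 16048 and 7486 CPM in CD51+CD140a+ MSCs. The 4 populations did not overlap in this order, and the lowest library of each stood above the highest of the population before it. In the CD51+CD140a+ libraries Ibsp ranked 2, 1 and 3 among all genes by TPM and took 0.797%, 1.80% and 0.784% of all counts. Means were 10118 ± 5147 CPM in CD51+CD140a+ MSCs and 3462 ± 1079 CPM in Itga8-Alcam+ BLCs (SD, n = 3 each).

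The log2 fold change of Ibsp was 3.89 (SE 0.441, FDR 0.000715) for Itga8-Alcam+ BLCs over Itga8+ MSCs and 2.87 (SE 0.422, FDR 0.000707) over Sca-1+ MSCs. Against CD51+CD140a+ MSCs it was lower in Itga8-Alcam+ BLCs, at -1.55 (SE 0.402, FDR 0.0128). The largest differences were those of Itga8+ MSCs from CD51+CD140a+ MSCs, -5.44 (SE 0.475, FDR 1.01e-05), and of Sca-1+ MSCs from CD51+CD140a+ MSCs, -4.42 (SE 0.453, FDR 3.46e-05). Between Itga8+ and Sca-1+ MSCs the value was -1.02 (SE 0.397) with an FDR of 0.1004, which misses the threshold, and DESeq2 (FDR 0.0643), limma-trend (0.0745) and the fit without Itga8+ replicate 1 (-1.30, FDR 0.0857) called it. Ibsp is also made by hypertrophic cartilage cells. Col10a1, the hypertrophic collagen, was at 12.7 to 192 CPM in Itga8-Alcam+ BLCs, 5.60 to 16 CPM in Sca-1+ MSCs, 0 to 13.3 CPM in Itga8+ MSCs and 0 to 0.612 CPM in CD51+CD140a+ MSCs, where the cartilage sum was also lowest. In CD51+CD140a+ MSCs 4 genes of LepR+ stroma (Lepr, Cxcl12, Adipoq and Kitl) summed to 44457 to 60831 CPM against 180 to 700 CPM in the other 9 libraries. The part of either cell type in the Ibsp level was not tested.

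Dmp1 was the member that set Itga8-Alcam+ BLCs apart. It had 32814, 36999 and 37778 counts in these 3 libraries, or 1634, 1715 and 2265 CPM. Itga8+ MSCs had 1, 0 and 8 counts, Sca-1+ MSCs 7, 3 and 8 counts, and CD51+CD140a+ MSCs 225, 325 and 202 counts, or 6.15, 9.32 and 6.51 CPM. Itga8-Alcam+ BLCs and CD51+CD140a+ MSCs stood apart from each other and from the rest, while Itga8+ and Sca-1+ MSCs overlapped near the floor. Dmp1 ranked 53, 50 and 61 by TPM in the Itga8-Alcam+ libraries and from 7515 to 9177 in CD51+CD140a+ MSCs. Its spread within Itga8-Alcam+ BLCs, a coefficient of variation of 18.3%, was the smallest of the members there, against 31.2% for Ibsp, 44.5% for Mepe, 76.6% for Spp1 and 98.2% for Phex. Replicate 3, the highest of the 3 by CPM, was the lowest by TPM (1973, 2039 and 1860.3), so their order depends on the scale.

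The log2 fold change of Dmp1 in Itga8-Alcam+ BLCs was 13.44 (SE 0.912, FDR 2.62e-05) over Itga8+ MSCs, 12.56 (SE 0.875, FDR 6.81e-06) over Sca-1+ MSCs and 8.00 (SE 0.72, FDR 1.19e-05) over CD51+CD140a+ MSCs. Those over Itga8+ and Sca-1+ MSCs rest on 9 and 18 counts in the lower population, so their size is less certain than their direction. Against CD51+CD140a+ MSCs, Dmp1 was also lower in the Itga8+ population (-5.45, SE 0.729, FDR 0.000199) and in the Sca-1+ population (-4.56, SE 0.673, FDR 0.000471). Every one of these 5 calls held under all 15 alternatives to the fit. Itga8+ and Sca-1+ MSCs were at -0.89 (SE 0.813, FDR 0.465), and without Itga8+ replicate 3, which holds 8 of the 9 counts, the value was -3.38 and called at an FDR of 0.0165, on 1 count in the 2 Itga8+ libraries that remained.

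**Figure D1:**
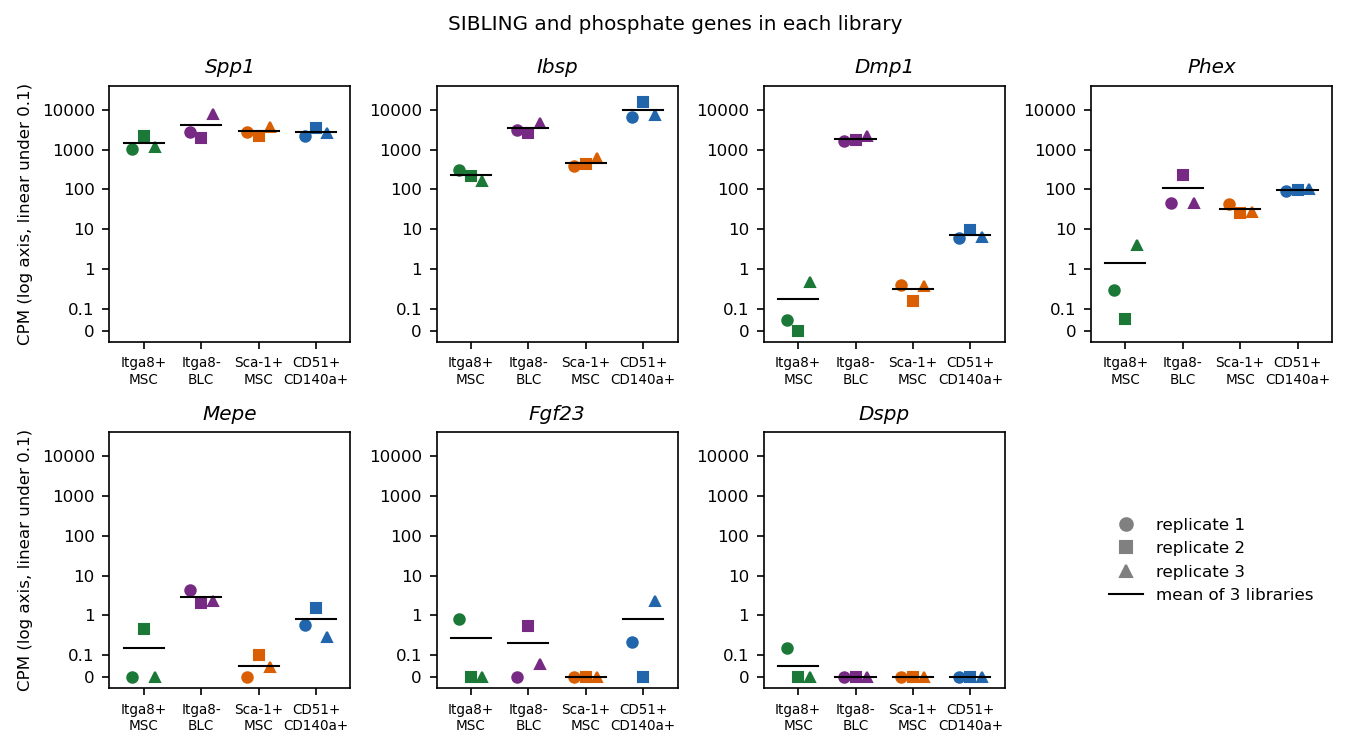
Level of each member in CPM (vertical log axis, linear under 0.1) in every library of the 4 populations, with a symbol for each replicate and a bar at the mean of 3 libraries. Spp1 is at 1047 CPM or more in all 12 libraries, Dmp1 is at 1634 CPM or more in Itga8- BLCs and at 9.32 CPM or less in the other 9, and Fgf23 and Dspp are at or near 0 in most.

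Phex was lowest in Itga8+ MSCs, where 68 of its 75 counts came from replicate 3. It was at 0.297, 0.0519 and 3.93 CPM (6, 1 and 68 counts) in Itga8+ MSCs, at 42.7, 25.9 and 27.5 CPM in Sca-1+ MSCs, at 89.5, 97.8 and 105 CPM in CD51+CD140a+ MSCs and at 45.0, 225 and 46.5 CPM in Itga8-Alcam+ BLCs. CD51+CD140a+ MSCs varied little (97.3 ± 7.57 CPM, SD, n = 3), whereas Itga8-Alcam+ BLCs varied widely (106 ± 104 CPM) because replicate 2 stood at over 4 times the others. Every library of the other 3 populations was above every Itga8+ library.

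The log2 fold change of Phex for Itga8-Alcam+ BLCs over Itga8+ MSCs was 6.23 (SE 1.17, FDR 0.0131). A fit of these 2 populations alone gave 6.20 and an FDR of 0.149, which misses the threshold, and DESeq2 gave no adjusted p for this gene. Itga8+ MSCs were lower than Sca-1+ MSCs by -4.51 (SE 1.08, FDR 0.0159) and lower than CD51+CD140a+ MSCs by -6.11 (SE 1.16, FDR 0.0022). Itga8-Alcam+ BLCs and CD51+CD140a+ MSCs were not told apart, at 0.12 with a 95% interval of -1.67 to 1.91 (FDR 0.941). That value was -1.09 without Itga8-Alcam+ replicate 2. Sca-1+ MSCs were at -1.60 (FDR 0.306) against CD51+CD140a+ MSCs and did not overlap with them, and fitting just that pair gave -1.61 and an FDR of 0.000436. Itga8-Alcam+ BLCs over Sca-1+ MSCs were at 1.72 (FDR 0.213), and fitting just that pair gave 1.69 and an FDR of 0.0769.

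Mepe was detected at a low level in Itga8-Alcam+ BLCs, with 88, 44 and 38 counts (4.38, 2.04 and 2.28 CPM), and lower in CD51+CD140a+ MSCs, with 21, 55 and 9 counts (0.574, 1.58 and 0.290 CPM). Itga8+ MSCs had 0, 9 and 0 counts and Sca-1+ MSCs 0, 2 and 1. By CPM the 3 Itga8-Alcam+ libraries were above the 9 others, but by TPM CD51+CD140a+ replicate 2 (3.63) was above Itga8-Alcam+ replicate 3 (3.08). Per length Mepe reached 3.08 to 8.70 TPM in Itga8-Alcam+ BLCs, where Dmp1 was at 1860.3 to 2039 TPM.

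Mepe was called higher in Itga8-Alcam+ BLCs than in Sca-1+ MSCs (log2 fold change 5.70, SE 1.39, FDR 0.0132), with 170 counts against 3, a ratio of rates of 57.4 whose exact binomial 95% interval, for counting error only, was 19.3 to 281. It was also lower in Sca-1+ than in CD51+CD140a+ MSCs (-3.88, SE 1.35, FDR 0.0714), on 3 counts against 85, a ratio of 16.3 with an interval of 5.40 to 80.7. The second call was lost, with FDRs from 0.101 to 0.214, when any Sca-1+ library or replicate 1 or 2 of CD51+CD140a+ MSCs was left out. The difference from Itga8+ MSCs was 4.16 (SE 1.24) with an FDR of 0.125. Without Itga8+ replicate 2, which holds all 9 Itga8+ counts, it was 9.08 with an FDR of 0.0152, and DESeq2 (FDR 0.0131) and limma-trend (0.00944) called it as well. Against CD51+CD140a+ MSCs the difference was 1.83 with an FDR of 0.213, and limma-trend (1.92, FDR 0.0779) and the 2 populations alone (1.82, FDR 0.0804) called it. Itga8+ MSCs were at -2.34 (FDR 0.152) against the CD51+CD140a+ population, and limma-trend (-2.21, FDR 0.0483) and the fit without Itga8+ replicate 2 (-7.25, FDR 0.00999) called this as lower.

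Fgf23, the phosphate hormone, had counts in 5 of 12 libraries. Replicates 1 to 3 had 8, 0 and 70 counts in CD51+CD140a+ MSCs, 0, 12 and 1 counts in Itga8-Alcam+ BLCs and 16, 0 and 0 counts in Itga8+ MSCs, and Sca-1+ libraries had no count. The highest level was 2.26 CPM, in CD51+CD140a+ replicate 3, and in no population did all 3 libraries rise above the floor. FDRs were 0.151 to 0.99 across the 6 comparisons, and the gene was not called in any. Fitting Sca-1+ and CD51+CD140a+ MSCs as a pair called it lower in Sca-1+ MSCs (-7.46, FDR 0.0837), a value that rests on 70 of 78 counts from CD51+CD140a+ replicate 3. Dspp, the dentine member, had 3 counts in Itga8+ replicate 1 and no count in the other 11 libraries, which allows up to 0.180 CPM in a library, and was left out of the fit by the filter at 0.5 CPM.

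Read together by comparison, 3 members (Dmp1, Ibsp and Phex) were called higher in Itga8-Alcam+ BLCs than in Itga8+ MSCs, where 2.16% of all tested genes were and 1.66% were called the other way. Against Sca-1+ MSCs 3 (Dmp1, Ibsp and Mepe) were called higher in Itga8-Alcam+ BLCs, with 14.5% of all genes. Against CD51+CD140a+ MSCs Dmp1 was called higher in Itga8-Alcam+ BLCs, with 20.4% of all genes, and Ibsp lower, with 14.9%. Phex was called higher in Sca-1+ than in Itga8+ MSCs, with 8.89% of all genes, while 12.9% were called the other way. Dmp1, Ibsp and Phex were called higher in CD51+CD140a+ than in Itga8+ MSCs, with 14.3% of all genes, and Dmp1, Ibsp and Mepe higher in CD51+CD140a+ than in Sca-1+ MSCs, with 9.3%. These comparisons share libraries and are not independent of each other. Where the libraries of 2 populations do not overlap, the exact two-sided permutation p was 0.1, the smallest that 3 against 3 allows. Fewer cells of a type and less RNA per cell cannot be told apart in such bulk samples.

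**Figure D2:**
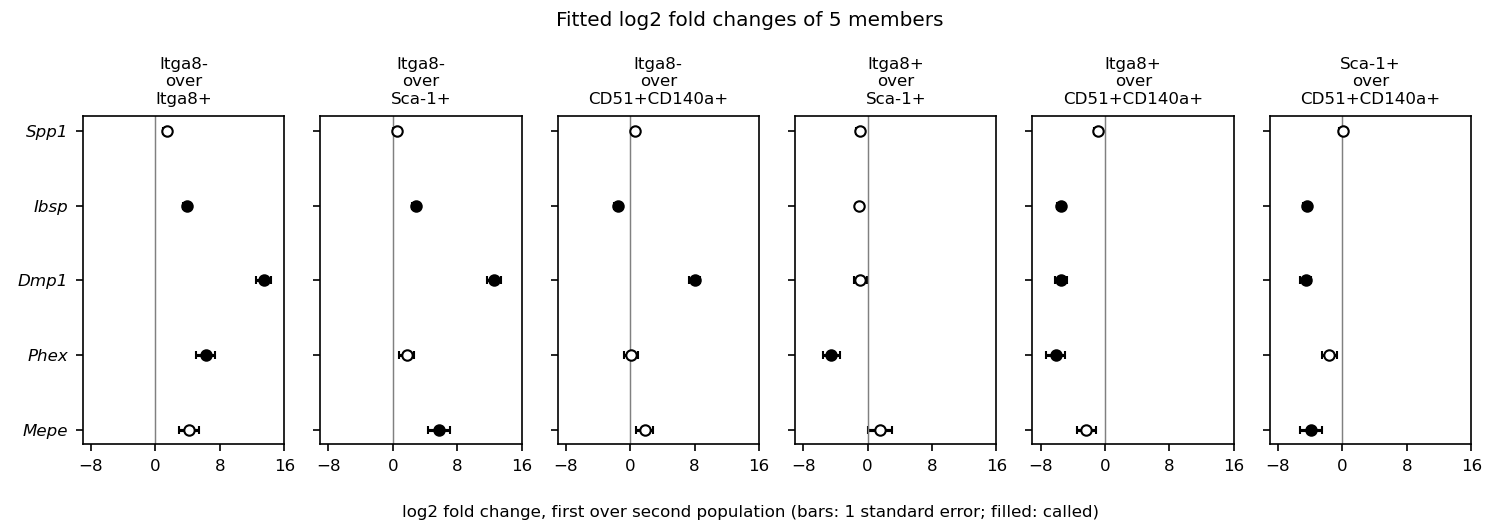
Fitted log2 fold change (horizontal axis, first over second population) of 5 members in the 6 comparisons, with bars of 1 standard error and filled symbols where the gene was called. Dmp1 lies at 8.00 to 13.44 in the 3 comparisons of Itga8- BLCs, while Spp1 stays between -0.95 and 1.5 and is called in none.

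Scaling by library totals alone moved the median over all genes (log2 fold change) from -0.08 to -0.34 for Itga8-Alcam+ BLCs over Itga8+ MSCs and from 0.09 to -0.24 over CD51+CD140a+ MSCs. Over Sca-1+ MSCs it moved from 0.12 to -0.07. The calls of the members kept their side and direction under it and under RLE size factors. Ratios of members within a library do not depend on scaling. The TPM of Ibsp per TPM of Spp1 was 0.240, 0.0794 and 0.107 in Itga8+ MSCs and 0.11, 0.156 and 0.131 in Sca-1+ MSCs, which overlapped. It was 0.884, 1.07 and 0.470 in Itga8-Alcam+ BLCs and 2.52, 3.65 and 2.25 in CD51+CD140a+ MSCs, each apart from the rest. So osteopontin transcripts outnumbered those of bone sialoprotein in every Itga8+ and Sca-1+ library, and the reverse held in every CD51+CD140a+ library. The TPM of Dmp1 per TPM of Ibsp was 0.397, 0.488 and 0.362 in Itga8-Alcam+ BLCs and at most 0.00215 in the other 9 libraries. The CD51+CD140a+ libraries, with the most Ibsp, were at 0.000674, 0.000434 and 0.00065. The 7 members together took 0.132% to 0.245% of the counts in Itga8+ MSCs, 0.266% to 0.434% in Sca-1+ MSCs, 0.511% to 1.23% in Itga8-Alcam+ BLCs and 1.06% to 2.20% in CD51+CD140a+ MSCs.

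**Figure D3:**
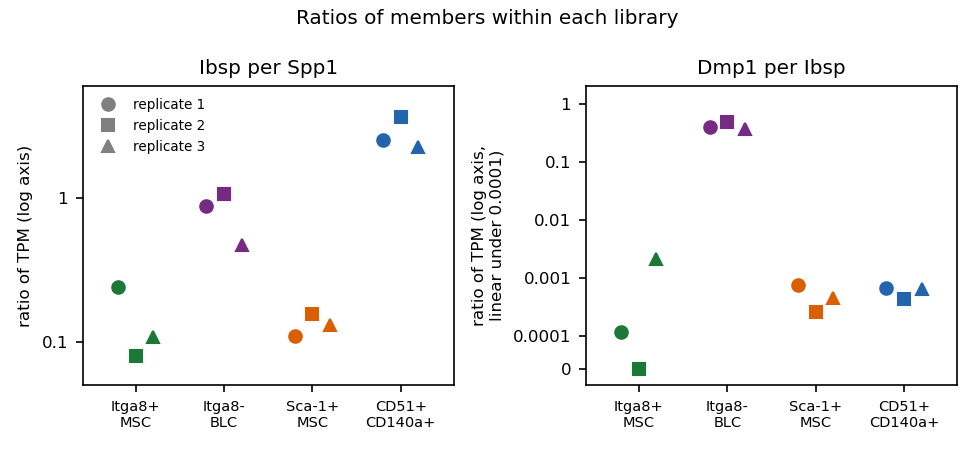
Ratio of TPM of Ibsp to Spp1 (left, log axis) and of Dmp1 to Ibsp (right, log axis, linear under 0.0001) in each library of the 4 populations, with a symbol for each replicate. CD51+CD140a+ libraries lie at 2.25 to 3.65 on the left, and Itga8- BLCs at 0.362 to 0.488 on the right, above the other 9 libraries.

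The 3 Itga8-Alcam+ libraries differed among themselves in which bone genes were high. By CPM, replicate 3 had the highest Spp1, Ibsp and Dmp1 (though the lowest Dmp1 by TPM), and also the highest Bglap (6983 CPM against 1753 and 1176) and Ifitm5 (558 against 149 and 122). Replicate 2 had the highest Phex, and also the highest Ptprz1 (109 CPM against 24.4 and 28.7) and Col10a1 (192 against 12.7 and 26.4). Cartilage genes summed to 37730, 69302 and 6845 CPM in replicates 1, 2 and 3, and myeloid genes to 1379, 1679 and 2288 CPM. The cartilage sum varied widely in Itga8+ MSCs as well, at 64561, 8737 and 111692 CPM in replicates 1, 2 and 3. The part of cartilage and myeloid genes in the spread of the members was not tested.

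Of 11 other protein-coding genes within 500 kb of the cluster, 10 were tested. In Itga8-Alcam+ BLCs 1 was called lower than in Itga8+ MSCs (1.66% of all genes), 2 lower than in Sca-1+ MSCs (11.9%), and 1 higher and 2 lower than in CD51+CD140a+ MSCs (20.4% and 14.9%). Those called in any of the 6 comparisons were Klhl8, Sparcl1 and Pkd2. Sparcl1, a matrix gene related to osteonectin and the nearest neighbour before Dspp, averaged 621 CPM for Itga8+ MSCs, 118 for Sca-1+ MSCs, 65.4 for Itga8-Alcam+ BLCs and 7.11 for CD51+CD140a+ MSCs, with a log2 fold change of -3.25 (FDR 0.0018) for Itga8-Alcam+ BLCs over Itga8+ MSCs, the opposite direction to Dmp1 and Ibsp. Pkd2, the next gene after Spp1, was at 496 CPM in Sca-1+ MSCs and 55.7 CPM in Itga8-Alcam+ BLCs (-3.15, FDR 0.0198). Klhl8 was lower in Itga8-Alcam+ BLCs than in CD51+CD140a+ MSCs (-2.90, FDR 0.000397). Within the cluster, Mepe lies between Ibsp and Spp1 and reached at most 4.38 CPM in the Itga8-Alcam+ libraries, where both were at 1962 CPM or more.

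**Figure D4:**
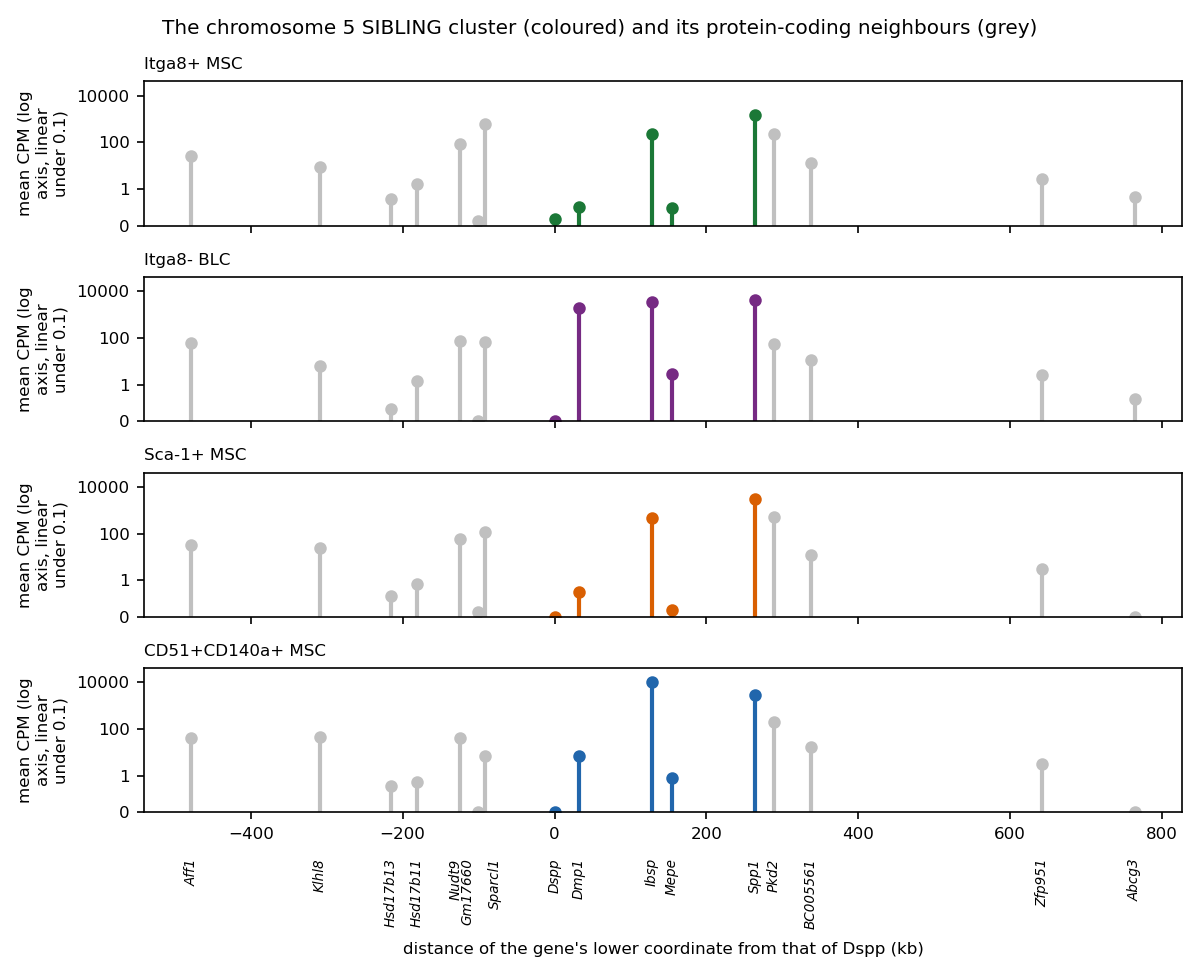
Mean CPM (vertical log axis, linear under 0.1; n = 3 libraries) of the 5 SIBLING genes (coloured) and 11 neighbours (grey) against distance from the lower coordinate of Dspp in kb, with a panel per population. Dmp1 is at 1871 CPM in Itga8- BLCs and 7.32 CPM or less elsewhere, while Spp1 is high in all 4 panels and the grey neighbours stay under 700 CPM.

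The genes most like each member over the 12 libraries, by Pearson's r of log2(CPM + 1), are given as a description, since the libraries of a population share their level of many genes. Entpd3 (r = 0.996), Tmem182 (0.990) and Ifitm5 (0.982), a membrane gene of osteoblasts, were most like Dmp1, and Entpd3 was at 327 CPM in Itga8-Alcam+ BLCs and 2.54 CPM or less elsewhere. Angpt2 (0.991), Cd1d1 (0.972) and Lifr (0.964), the receptor of leukaemia inhibitory factor, were most like Ibsp, and Angpt2 was at 113 CPM in CD51+CD140a+ MSCs and 33.9 CPM in Itga8-Alcam+ BLCs. Abi3 (0.940), Car3 (0.933) and Dmp1 (0.912) were most like Mepe. Adamts14 (0.955) and Lox (0.954), the latter a collagen crosslinking enzyme, were among those most like Phex. The nearest to Spp1 reached only 0.895 (Thap11), 0.893 (Lamp1) and 0.891 (Fxyd1). With log2(CPM + 4), 1 of the 3 genes of Dmp1 stayed among its 3, and Dmp1 itself left those of Mepe, as Lox left those of Phex.

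Enzymes that modify or cut SIBLING proteins were counted on a list of 9. In Itga8-Alcam+ BLCs over Itga8+ MSCs 2 were called higher and 1 lower, over Sca-1+ MSCs 2 and 1, and over CD51+CD140a+ MSCs 4 and 2. Of all genes, 2.16% and 1.66%, 14.5% and 11.9%, and 20.4% and 14.9% were called higher and lower in these comparisons, so the counts of 9 over Sca-1+ MSCs were near the share of all genes. The same shares stand behind the counts of the lists that follow. The median log2 fold change of the list was 0.47, 0.80 and 1.69, against -0.08, 0.12 and 0.09 for all genes. Mmp13, a collagenase, rose in Itga8-Alcam+ BLCs over Itga8+ MSCs (79.2 ± 43.1 against 7.73 ± 3.67 CPM, log2 fold change 3.36, FDR 0.0106), as did Bmp1, the protease that cleaves procollagen and DMP1 (626 ± 153 against 131 ± 86.0 CPM, 2.26, FDR 0.036). Mmp13 was nevertheless lower in Itga8-Alcam+ BLCs than in CD51+CD140a+ MSCs, where it was at 504 CPM (-2.67, FDR 0.00501), and was at 136 CPM in Sca-1+ MSCs. Mmp3, which can cut osteopontin, was at 116 ± 54.3 CPM in Itga8-Alcam+ BLCs and had 1 count in the CD51+CD140a+ libraries, and Pcsk6 was at 436 ± 347 against 11.2 ± 2.18 CPM (5.28, FDR 0.000679). Fam20c, the kinase that phosphorylates SIBLING proteins, and Fam20a, its activating partner, went opposite ways between Itga8-Alcam+ BLCs and CD51+CD140a+ MSCs. Fam20c was at 293 CPM in Itga8-Alcam+ BLCs and 14.3 CPM in CD51+CD140a+ MSCs (4.35, FDR 3.02e-05), and Fam20a at 8.36 and 112 CPM (-3.75, FDR 7.24e-06).

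Mineral and phosphate-handling genes were counted on a list of 12, of which 9 were tested. In Itga8-Alcam+ BLCs 1 was called higher over Itga8+ MSCs, 3 higher and 2 lower over Sca-1+ MSCs, and 6 higher and 1 lower over CD51+CD140a+ MSCs, with list medians of -0.70, -0.13 and 1.23. Alpl, the phosphatase that frees phosphate for mineral, was at 1223 ± 155 CPM in Itga8-Alcam+ BLCs and 463 ± 230 CPM in Itga8+ MSCs (1.40, FDR 0.096), a call that was lost under at least 8 of the 15 alternatives. Smpd3, a sphingomyelinase needed for mineral, was at 715 ± 460 CPM against 32.2 ± 22.0 CPM in CD51+CD140a+ MSCs (4.47, FDR 0.00235). Mgp, an inhibitor of mineral, was at 986 ± 691 against 76.4 ± 14.2 CPM (3.69, FDR 0.00126). Against Itga8+ MSCs Mgp was not called (-1.26, FDR 0.429), and its libraries there were at 1162, 4814 and 1099.7 CPM, with replicate 2 far above the others. Enpp1, whose product yields an inhibitor of mineral, was called lower than in Sca-1+ MSCs (-1.48, FDR 0.0519). Phospho1 reached at most 0.139 CPM in any library.

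In the FGF23 and vitamin D axis 11 genes were tested. Pth1r, the parathyroid hormone receptor, was the gene called over Itga8+ MSCs (655 ± 138 against 220 ± 104 CPM, log2 fold change 1.58, FDR 0.0399). Over Sca-1+ MSCs 5 were called higher and 1 lower in Itga8-Alcam+ BLCs, and over CD51+CD140a+ MSCs 4 and 1, with list medians of 0.32, 3.10 and 0.87 in the 3 comparisons. Galnt3, which protects FGF23 from cleavage, was at 31.9, 33.2 and 35.4 CPM in Itga8-Alcam+ BLCs and at 0.129 to 1.72 CPM in CD51+CD140a+ MSCs (5.11, FDR 0.0012), although Fgf23 itself was near 0 in the same libraries. Fgfr4 was at 3.74 against 0.118 CPM (4.98, FDR 0.0156). Kl, the co-receptor through which the kidney senses FGF23, was at 0 to 1.83 CPM in all 12 libraries.

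Receptors of SIBLING proteins were a list of 10, Cd44 and integrin subunits. Over Itga8+ MSCs the gene called was Itga8 itself, which the sort selected. Over Sca-1+ MSCs 3 were called lower in Itga8-Alcam+ BLCs, and over CD51+CD140a+ MSCs 1 was higher and 2 lower, in comparisons where 11.9% of all genes were lower over Sca-1+ MSCs and 20.4% were higher and 14.9% lower over CD51+CD140a+ MSCs. The latter were Itga9, an osteopontin receptor subunit (1.71 ± 2.33 against 137 ± 14.8 CPM, log2 fold change -6.30, FDR 0.00127), and Itga8 (-5.19, FDR 0.00104). Because Itga8-Alcam+ BLCs were sorted as Itga8-, this Itga8 call is not independent of the sort either. The gene called higher was Cd44 (170.0 ± 48.2 against 27.7 CPM, log2 fold change 2.61). List medians were -0.05, -1.28 and -0.60.

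**Figure D5:**
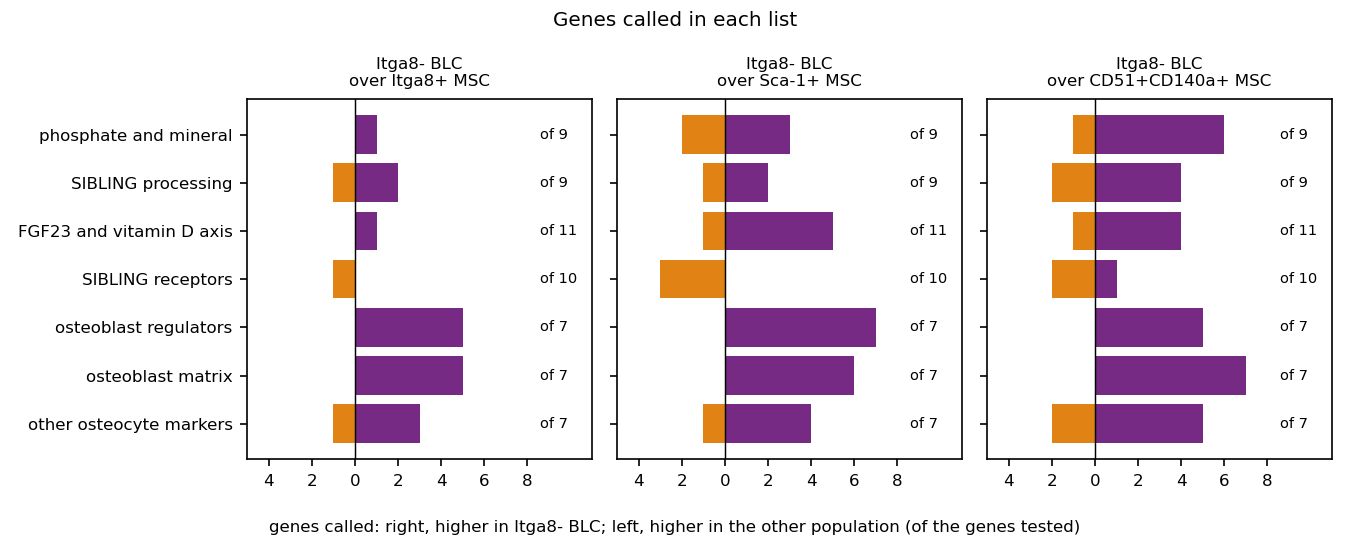
Number of genes called (horizontal axis) in each of 7 lists for Itga8- BLCs over the other 3 populations, to the right where higher in Itga8- BLCs and to the left where lower, with the number tested beside each bar. Osteoblast matrix genes are called higher in 5, 6 and 7 of 7, and receptors in at most 1 of 10.

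Most, not all, of the osteoblast genes listed were called higher in Itga8-Alcam+ BLCs. Of 7 transcription factors 5 were called higher over Itga8+ MSCs, 7 over Sca-1+ MSCs and 5 over CD51+CD140a+ MSCs, with medians of 2.82, 2.94 and 2.09. Dlx3 changed over Itga8+ MSCs (40.5 against 0.414 CPM, 6.58, FDR 0.000264), and Dlx3 (6.73, FDR 1.26e-05) and Mef2c (2.76, FDR 0.000338) had the largest changes over CD51+CD140a+ MSCs. Runx2, the factor that starts the osteoblast fate, was at 71.5 ± 31.1 CPM in Itga8-Alcam+ BLCs and 77.8 ± 16.1 CPM in CD51+CD140a+ MSCs (-0.12, SE 0.395, FDR 0.84), and at 20.9 ± 5.02 and 2.47 ± 0.975 CPM in Itga8+ and Sca-1+ MSCs. Of 7 matrix genes 5, 6 and 7 were called higher in the 3 comparisons, with medians of 3.99, 3.08 and 6.05. Col1a1 was at 1.95 (FDR 0.142) over Sca-1+ MSCs, and Dlx5 at -0.74 (FDR 0.176) over CD51+CD140a+ MSCs. Ifitm5, the bone-restricted membrane gene, was at 276 ± 245 CPM with 2 counts in the Itga8+ libraries, and Bglap, osteocalcin, at 3304 ± 3199 against 7.13 ± 7.01 CPM (8.85, FDR 0.0018). Bglap and Bglap2 are near-identical copies whose reads the counting may have split, so their separate values are uncertain. Over CD51+CD140a+ MSCs the log2 fold changes were 9.06 for Bglap and 9.35 for Bglap2 (FDR 0.00017 and 0.000172).

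Other osteocyte genes were called in both directions. Of 8 genes 7 were tested, and 3, 4 and 5 were called higher in Itga8-Alcam+ BLCs over Itga8+, Sca-1+ and CD51+CD140a+ MSCs and 1, 1 and 2 lower, with medians of 1.78, 2.38 and 3.70. Dkk1, a Wnt inhibitor, was at 10.5, 15.9 and 33.1 CPM in Itga8-Alcam+ BLCs and at most 0.574 CPM elsewhere (6.67, FDR 0.0483, over Itga8+ MSCs), and Irx5 was at 58.4 ± 17.3 against 1.13 ± 1.01 CPM (5.70, FDR 0.00122). Pdpn, an early osteocyte gene, was at 20.4 ± 2.66 against 0.178 ± 0.187 CPM in CD51+CD140a+ MSCs (6.81, FDR 0.00013), but Sca-1+ MSCs were at 33.5 CPM, with their libraries above those of Itga8-Alcam+ BLCs (-0.71, FDR 0.455). Sost, sclerostin, which defines mature osteocytes, was near the floor in Itga8-Alcam+ BLCs, at 0.299, 0.510 and 0.180 CPM. In these libraries 3 counts corresponded to 0.149, 0.139 and 0.180 CPM. Sost had no count in the other 9 libraries. Tnfsf11, RANKL, was at 139.6 ± 27.9 CPM in CD51+CD140a+ MSCs and 3.93 ± 1.67 CPM in Itga8-Alcam+ BLCs (-5.15, FDR 7.95e-06).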

How the data were processed

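RNA from 12 sorted samples was amplified with a SMART-Seq kit and sequenced on a NextSeq 500. The authors deposited raw counts of reads per Ensembl gene, 1 file per library, without normalization. The study's methods name TopHat and Bowtie2 on mm10, whereas the submitters' processing notes list FastQC 0.11.7, Trimmomatic 0.38, HISAT2 2.1.0, SAMtools 1.9 and featureCounts 1.6.3, and the sources used here do not settle which produced the counts. The annotation release and the use of strand are not given in the sources used here. Of 49585 identifiers 49326 were named from GENCODE M21 (GRCm38), and all 7 members were found.

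Counts of the 12 libraries were fitted in 1 edgeR 4.0.16 quasi-likelihood model (R 4.3.3) after TMM scaling, and genes that reached 0.5 CPM in some library were kept. The call needed an FDR under 0.1, adjusted over all genes tested within a comparison, and a fold change above 2. CPM are TMM-scaled, and TPM used GENCODE exon lengths. Single members were also compared with exact permutation tests (scipy 1.17.1). Alternative tools were DESeq2 1.42.0 and limma-trend (limma 3.58.1), and alternative scalings were RLE and plain library totals. The filter was also set to any gene with 1 count and to 10 counts in 3 libraries. Other fits used only the populations compared, a replicate block, a stricter FDR of 0.05, or all libraries but 1. The fits were also run on simulated counts with known changes, and the outcome is not reported here. Replicates differed by more than sampling noise, so none was counted as a copy.

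The members and lists were chosen with earlier results of these data known. From each list the text names the 2 genes with the largest change called in Itga8-Alcam+ BLCs over Itga8+ MSCs and over CD51+CD140a+ MSCs. Fam20c, Fam20a, Phospho1, Kl, Cd44, Runx2, Dlx5, Col1a1, Enpp1, Sost, Tnfsf11, the per-library examples of bone genes and the shared letters of promoters were chosen after their values were seen. Some genes that these rules would name are not reported here. Protein features that had been planned were not analysed here. The 95% intervals of log2 fold changes are 1.96 standard errors of the fit to each side and carry the spread between libraries. Floors and the intervals of count ratios cover counting error only, because copies from PCR cannot be told from separate molecules.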

Additional observations from a re-analysis of the deposited data

How the results depend on the processing

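The counts of members called that moved by over 1.5 times are given first. For Itga8-Alcam+ BLCs over CD51+CD140a+ MSCs, the count higher in Itga8-Alcam+ BLCs became 2 with limma-trend and with only the 2 populations fitted. The count higher in Sca-1+ than in Itga8+ MSCs became 2 with limma-trend, and that higher in CD51+CD140a+ than in Sca-1+ MSCs became 5 with only the 2 populations fitted. With a library left out, the counts ran from 3 to 5 for Itga8-Alcam+ BLCs over Itga8+ MSCs (5 without Itga8+ replicate 2), from 1 to 2 for Sca-1+ over Itga8+ MSCs (2 without Itga8+ replicate 1 or 3) and from 3 to 5 for CD51+CD140a+ over Itga8+ MSCs (5 without Itga8+ replicate 2). Smaller moves were from 3 to 2 for Itga8-Alcam+ BLCs over Itga8+ MSCs with only the 2 populations, from 3 to 4 there with DESeq2, limma-trend, no filter or without Itga8-Alcam+ replicate 2, and from 3 to 2 for CD51+CD140a+ over Sca-1+ MSCs at an FDR of 0.05 and without 5 of the 6 libraries, from 3 to 2 (DESeq2, which gave no adjusted p for Phex) or 4 (limma-trend) for CD51+CD140a+ over Itga8+ MSCs, and from 3 to 4 for Itga8-Alcam+ BLCs over Sca-1+ MSCs with only the 2 populations. Of the counts of other gene lists under the alternatives, 113 moved by over 1.5 times and 1147 did not. The causes were not tested.

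Values that turned direction were those of uncalled differences. Phex in Itga8-Alcam+ BLCs over CD51+CD140a+ MSCs was at -0.318 with limma-trend, -0.316 with library totals and -1.09 to 0.48 with a library left out. Spp1 in Sca-1+ over CD51+CD140a+ MSCs was at -0.0775 with library totals and ran from -0.14 to 0.26 with a library left out, and in Itga8-Alcam+ BLCs it ran from -0.29 to 0.84 over Sca-1+ MSCs and from -0.23 to 0.94 over CD51+CD140a+ MSCs. Mepe in Itga8+ over Sca-1+ MSCs ran from -3.41 to 2.42. Fgf23 in Itga8-Alcam+ BLCs over Itga8+ MSCs was at 0.10 with limma-trend, at 0.27 with the replicate block and ran from -3.05 to 5.33. Against CD51+CD140a+ MSCs, Fgf23 ran from -4.64 to 0.89 for Itga8-Alcam+ BLCs and from -7.27 to 1.24 for Itga8+ MSCs.

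Same-numbered libraries did not deviate together as a rule (r from -0.58 to 0.20 over 18 pairs, 5 of them over 0.1). In 13 of 36 cases the best match bore the library's own number. Some libraries of different numbers did deviate together, with r = 0.617 for Itga8+ replicate 3 and Itga8-Alcam+ replicate 2. For Itga8+ replicate 2 and Itga8-Alcam+ replicate 3, r was 0.590. Whether samples were paired, under these or other numbers, cannot be told from such correlations. With the replicate block, 433 genes were called between Itga8-Alcam+ BLCs and Itga8+ MSCs in place of 712, and 1203 with DESeq2, 464 at an FDR under 0.05 and 276 with only the 2 populations fitted. Between Itga8+ and Sca-1+ MSCs 2386 to 5878 genes were called with a library left out, against 4055. With 3 libraries a population, wide spread in Phex and low counts of Mepe, Fgf23 and Dspp limit what could be detected.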
